A study of Mus musculus with 4 samples.

Results

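The genes described here are the 6541 of 32285 genes in the count matrices that reached a level of at least 20 in the library titled control LSK, in the library titled Mll4 deleted LSK, or in both. Levels are in CPM, the unique molecular identifiers (UMIs) of a gene per 1000000 UMIs of the library. Each gene was compared between these 2 libraries. The sums run over all barcodes with 1000 or more genes and no more than 10% of their UMIs in mitochondrial genes. Of the 6541 genes, 5427 reached the minimum in both libraries, 558 only in the control and 556 only in the library labelled Mll4 deleted. The 164 genes just above the minimum, at 20 to 21 CPM, had a median log2 ratio of -0.08, and the 200 genes just below it, at 19 to 20, had one of -0.05.

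The series holds 4 mouse libraries, 1 for each genotype: control, Mll3 deleted, Mll4 deleted and Mll3/4 deleted. All cells were donor-derived (CD45.2+) bone marrow cells sorted for Sca1 and Kit and against lineage markers, which gives the LSK population, taken 10 weeks after transplantation into recipients. RNA was counted from its 3′ end in droplets together with 6 barcoded antibodies. The strain, the way the genes were deleted, the recipients and the number of mice in each library were not given in the sources used here. With 1 library a side there is no replicate check, no test was run, and every interval covers counting error only, at the 95% level.

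LSK cells include the blood stem cells and the multipotent progenitors that feed all blood lineages. Mll3 and Mll4 are the proteins of Kmt2c and Kmt2d, large methyltransferases that place methyl groups on histone H3 lysine 4, mainly at enhancers, and that work in a complex with shared subunits. Stem cells among LSK cells are usually enriched with the surface proteins CD150 (positive) and CD48 (negative), and CD48 appears as progenitors take on myeloid and lymphoid programmes.

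The library labelled Mll4 deleted stood apart from the others before any gene was compared. Of its 7702 barcodes, 4793 (62.2%) passed the filter, against 7274 of 7682 (94.7%) in the control and between 92.4% and 93.003% in the other 2 libraries. The kept cells held 120700343 UMIs in the library labelled Mll4 deleted and 119328763 in the control, so the summed depth was nearly equal, while the median per cell was 21400 and 14454 UMIs. Cells of the 2 libraries shared 12 barcode sequences, and between 7 and 14 were shared over all pairs of libraries. The male-specific genes Ddx3y, Eif2s3y, Kdm5d and Uty together had 2 UMIs in the control and 1 in the library labelled Mll4 deleted.

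The targeted gene did not separate the libraries. Kmt2d (chromosome 15, 98831669 to 98871204, GRCm38) was at 24.6 CPM in the control, 21.6 in the library labelled Mll3 deleted, 22.6 in that labelled Mll4 deleted and 25.4 in that labelled Mll3/4 deleted. The log2 ratio of Mll4 deleted to control was -0.12, with a counting interval of -0.20 to -0.05. Counts from the 3′ end can include message of an allele that was deleted further upstream, so this level checks nothing about the deletion, and genotypes are given below as labelled. Kmt2c was at 68.9 and 61.3 CPM in the control and the library labelled Mll4 deleted. Of 15 genes for subunits of histone H3 lysine 4 methyltransferase complexes, 14 were measured, none differed 2-fold, and their median log2 ratio was -0.13. Kmt2a, the gene of another methyltransferase of this family, was at 165 and 114 CPM. Within 1 Mb of Kmt2d, 20 of the genes were measured and only Fkbp11, a chaperone of the endoplasmic reticulum, differed 2-fold, at 32.4 CPM in the control and 64.9 in the library labelled Mll4 deleted.

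A gene is called higher or lower here when the 2 libraries differed 2-fold or more in CPM. Of the 6541 genes, 450 (6.88%) were higher and 250 (3.82%) were lower in the library labelled Mll4 deleted. The difference between directions was in the size of the gaps: 196 genes were at least 4-fold higher and 18 at least 4-fold lower, and at 16-fold the counts were 82 and 3. At the centre of the distribution, 2567 genes lay within 1.2-fold. The median log2 ratio was -0.12 and the SD across genes was 0.989. These sums do not tell fewer cells of a type from less RNA per cell, which holds for every whole-library value below. The plot of levels in both libraries shows the long arm of genes that were near 0 in the control.

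**Figure D1:**
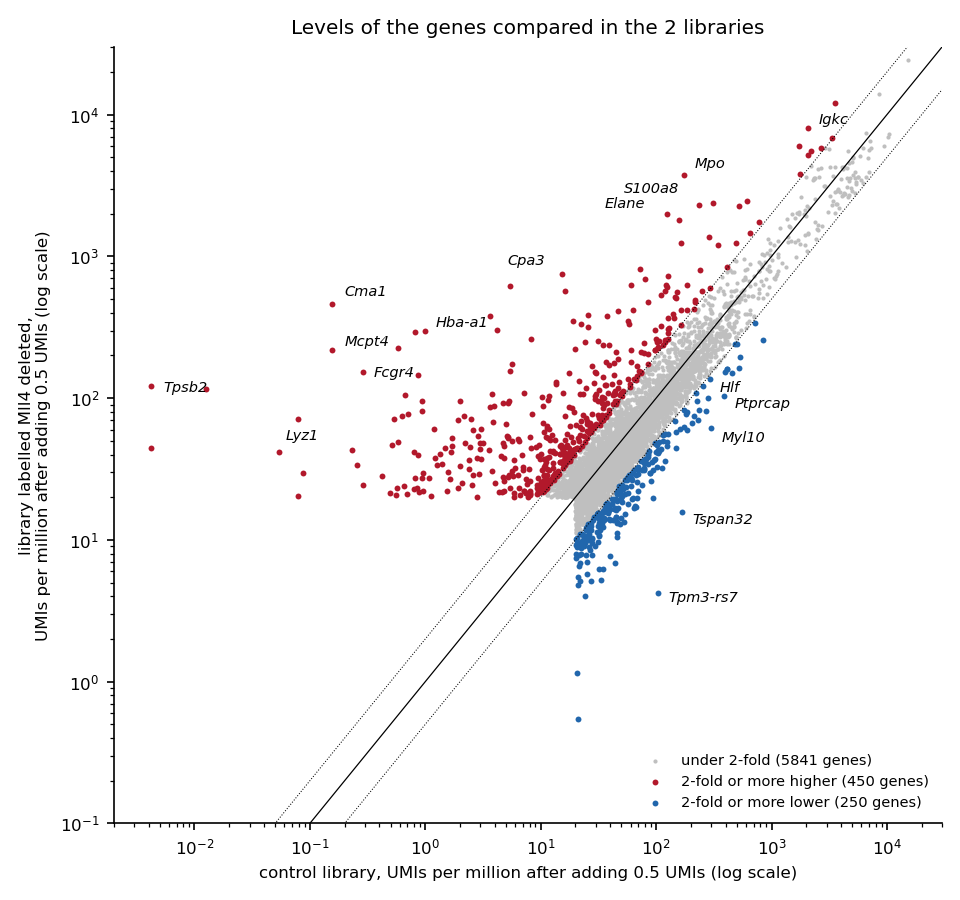
Each point is 1 of the 6541 genes, with its level in the control library (x axis) and in the library labelled Mll4 deleted (y axis), both in CPM after adding 0.5 UMIs, on log scales. The solid line marks equal levels and the dotted lines mark 2-fold. The 450 higher genes reach far to the left, to control levels near 0, while most of the 250 lower genes lie close to the lower dotted line.

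The largest differences were in genes of mast cells and basophils, granulocytes that store proteases and histamine. Of 18 listed genes, 11 were measured, 9 were higher, none was lower, and the median log2 ratio was 5.44 (5.44 also with Tpsb2 set to a floor of 3 control UMIs). Tpsb2, a tryptase of mast cell granules, had 0 UMIs in the control, in the library labelled Mll3 deleted and in that labelled Mll3/4 deleted, and 14645 in the library labelled Mll4 deleted. Against the 3 UMIs that a count of 0 allows in the control library it was at least 4826-fold higher. Cma1, mast cell chymase, was at 0.151 CPM in the control, 0.227 in Mll3 deleted, 459 in Mll4 deleted and 0 in Mll3/4 deleted. All 18 control UMIs of Cma1 were in 1 cell. Mcpt4, another chymase, had the same 18 UMIs in the control, 0.151 CPM, and was at 219 CPM in Mll4 deleted. These genes were thus nearly absent from 3 of the 4 libraries.

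Cpa3, the carboxypeptidase of mast cell granules, was already present in the control at 15.2 CPM and was at 6.80, 757 and 1.75 in Mll3, Mll4 and Mll3/4 deleted. Its log2 ratio of Mll4 deleted to control was 5.64 (5.57 to 5.71). Il1rl1, the receptor for interleukin 33, was at 0.93 CPM in the control and 95.8 in Mll4 deleted. The high-affinity IgE receptor chain Fcer1a was at 1.47 and 44.3, and Hdc, which makes histamine, at 2.87 and 53.7. Srgn, the proteoglycan core that holds granule contents in many blood cells, was at 1139 and 1032 and was not called. The basophil gene Mcpt8 was at 4.82 and 45.8 CPM. Of 11 mast and basophil marker genes, Tpsb2, Tpsab1 and Mrgprb1 had 0 UMIs in the control, and the 11 together summed to 26.7 CPM there and to 1723 in the library labelled Mll4 deleted.

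Several of these proteases lie side by side. In the interval of chromosome 14 from 55941451 to 56262260 (GRCm38), 10 protease genes were followed. Of these, 5 were measured at the minimum level. Their log2 ratios were 11.53 for Cma1, 10.46 for Mcpt4, 3.25 for Mcpt8, 3.53 for Ctsg and 5.44 for Gzmb. The other 5 of the 10 genes stayed under the minimum and were mixed. Further genes of the interval are not described here. Cma2 had 2 UMIs in the control and 268 in Mll4 deleted, Mcpt2 had 317 and 916, Mcpt1 had 412 and 434, Mcpt9 had 13 and 0, and Gzmc had 2 and 0. A second cluster on chromosome 10, from 79874476 to 79892655, holds the neutrophil proteases Prtn3 and Elane, with log2 ratios of 2.11 and 4.01, beside Cfd with 14 and 26 UMIs. Plppr3, whose first bases overlap those of Prtn3 on the opposite strand, had a log2 ratio of 0.10. Sequences of these protease genes are near-identical in places, and reads shared between copies make single members of the family less certain.

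The 250 bases before the RefSeq start of these genes (GRCm38.p6, 5′ to 3′ on the gene's strand) are shown because members of both clusters were higher together. Capitals mark AGATAA, a letter string of GATA factor sites, and GAGGAA, one of ETS factor sites, on either strand (TTATCT and TTCCTC). The 2 chymase genes with the highest ratios held neither string. Only these exact letters were searched for, so other spellings of either kind of site were not counted in any of the sequences.
Cma1 (chr14:55944676-55944925, minus strand): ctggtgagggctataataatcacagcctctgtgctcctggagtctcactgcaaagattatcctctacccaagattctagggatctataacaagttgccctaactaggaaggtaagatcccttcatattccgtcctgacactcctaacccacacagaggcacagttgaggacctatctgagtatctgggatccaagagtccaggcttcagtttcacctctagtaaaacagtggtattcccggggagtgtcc
Mcpt4 (chr14:56062311-56062560, minus strand): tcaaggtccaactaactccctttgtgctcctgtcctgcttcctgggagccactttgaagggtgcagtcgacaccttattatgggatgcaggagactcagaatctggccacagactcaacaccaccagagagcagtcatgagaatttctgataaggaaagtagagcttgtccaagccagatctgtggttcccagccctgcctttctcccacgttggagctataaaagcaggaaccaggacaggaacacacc
The gene of the mast cell carboxypeptidase held 1 GATA string.
Cpa3 (chr3:20242182-20242431, minus strand): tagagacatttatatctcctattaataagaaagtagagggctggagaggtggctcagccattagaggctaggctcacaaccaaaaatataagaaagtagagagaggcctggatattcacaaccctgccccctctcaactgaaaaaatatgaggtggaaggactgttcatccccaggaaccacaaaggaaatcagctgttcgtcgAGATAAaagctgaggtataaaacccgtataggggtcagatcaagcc
The genes of 4 neutrophil granule proteins held ETS strings, 2 in Mpo and 1 in each of the others. Of the 2 remaining proteases measured at the minimum level in the chromosome 14 interval, not printed, Mcpt8 held 1 ETS string as well and Gzmb neither string.
Ctsg (chr14:56102575-56102824, minus strand): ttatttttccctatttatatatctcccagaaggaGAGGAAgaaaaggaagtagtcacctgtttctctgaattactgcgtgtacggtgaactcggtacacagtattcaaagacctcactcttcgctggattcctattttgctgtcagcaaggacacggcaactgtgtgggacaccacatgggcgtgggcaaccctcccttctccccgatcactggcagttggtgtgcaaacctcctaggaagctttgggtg
Elane (chr10:79886062-79886311, plus strand): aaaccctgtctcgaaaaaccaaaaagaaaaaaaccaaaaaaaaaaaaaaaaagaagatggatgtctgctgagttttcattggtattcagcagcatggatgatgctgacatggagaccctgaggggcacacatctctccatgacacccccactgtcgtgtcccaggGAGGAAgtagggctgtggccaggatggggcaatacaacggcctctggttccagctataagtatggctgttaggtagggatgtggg
Prtn3 (chr10:79879417-79879666, plus strand): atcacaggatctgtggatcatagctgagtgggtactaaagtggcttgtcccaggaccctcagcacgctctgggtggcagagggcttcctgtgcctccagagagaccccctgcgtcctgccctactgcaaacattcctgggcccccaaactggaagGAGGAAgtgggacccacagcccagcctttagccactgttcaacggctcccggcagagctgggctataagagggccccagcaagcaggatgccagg
Mpo (chr11:87793534-87793783, plus strand): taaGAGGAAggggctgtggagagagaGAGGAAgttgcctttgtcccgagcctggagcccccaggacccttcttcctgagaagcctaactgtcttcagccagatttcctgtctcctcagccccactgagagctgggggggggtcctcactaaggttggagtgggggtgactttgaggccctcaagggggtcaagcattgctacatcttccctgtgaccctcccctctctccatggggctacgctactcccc
Over all 32851 promoters in the RefSeq table, the GATA string was in 9.99% and the ETS string in 23.3% of windows of this length. A promoter was found for 5245 of the 6541 genes. A match is a description of letters, and no factor's binding was measured.

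Genes of monocytes and macrophages formed the second group. Of 20 listed genes, 19 were measured, 18 were higher, none was lower, and the median log2 ratio was 4.32. Csf1r, the receptor for macrophage colony-stimulating factor, was at 1.90 CPM in the control, 1.71 in Mll3 deleted, 70.4 in Mll4 deleted and 0.473 in Mll3/4 deleted. Fcgr4, a receptor for IgG found on monocytes, was at 0.285, 0.595, 152 and 0.197 in the same order. Ccr2, the chemokine receptor of inflammatory monocytes, was at 5.42 CPM in the control and 155 in Mll4 deleted. Ms4a6c was at 37.5 and 381, and Ly6c2, a surface protein of monocytes and their progenitors, at 22.5 and 332. The library labelled Mll4 deleted was thus the highest of the 4 libraries for Csf1r and Fcgr4, by a wide margin. Lysozyme genes were higher as well: Lyz2 was at 286 and 1373 and Lyz1 at 0.0754 and 71.5, but Lyz1 is a near-identical copy of Lyz2 and its reads may be divided between them.

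Resident macrophage genes were part of this group. Ms4a7 was at 0.704 CPM in the control and 77.8 in Mll4 deleted, and the complement gene C1qa was at 4.68 and 92.1. The cathepsin Ctss was at 19.1 and 348. Apoe was the exception of the list: it was at 324 and 164, a log2 ratio of -0.98, just under the 2-fold line. The 10 monocyte and macrophage markers summed to 19.2 CPM in the control and 722 in Mll4 deleted, and none had 0 UMIs in the control.

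Genes of the primary granules, the first to form in neutrophil and monocyte precursors, were higher too. All 12 listed genes were measured, 9 were higher, none was lower, and the median log2 ratio was 1.65. Mpo, myeloperoxidase, was at 174 CPM in the control, 196 in Mll3 deleted, 3781 in Mll4 deleted and 11.3 in Mll3/4 deleted, a 21.8-fold difference between Mll4 deleted and control (21.5 to 22.1). Elane, neutrophil elastase, was at 124, 171, 1997 and 9.73 in the same order, and Ctsg, cathepsin G, at 156, 177, 1806 and 5.08. In all 3 the control and the library labelled Mll3 deleted were close and the library labelled Mll4 deleted was more than 10-fold above both. Prtn3, proteinase 3, was at 526 and 2276 in the control and Mll4 deleted. Ms4a3, a gene of committed granulocyte and monocyte progenitors, was at 25.5 and 384 CPM. Nkg7 went the other way without reaching 2-fold, at 184 and 92.99.

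Secondary granule and S100 genes belong to later neutrophils, and 10 of the 11 measured were higher, with a median log2 ratio of 2.55. S100a8 was at 235 CPM in the control, 76.7 in Mll3 deleted, 2292 in Mll4 deleted and 1.61 in Mll3/4 deleted. Camp, an antimicrobial peptide gene, was at 151 and 559 in the control and Mll4 deleted, and Ngp at 85.2 and 474. A small number of cells held most of this message: 90% of the UMIs of S100a8 came from 55 of 4793 cells in Mll4 deleted and from 17 cells in the control, while 90% of Mpo came from 832 cells and 90% of Elane from 629. Cybb, the oxidase subunit of phagocytes, was at 8.27 and 260. Padi4 was the 1 lower gene of the list, at 34.7 and 12.3 CPM.

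Of 10 listed transcription factors of myeloid cells, 9 were measured, 6 were higher, none was lower, and the median log2 ratio was 1.32. Irf8, which directs monocyte and dendritic fate, was at 23.3 CPM in the control, 33.4 in Mll3 deleted, 106 in Mll4 deleted and 5.55 in Mll3/4 deleted. Cebpa was at 14.7 and 40.2 in the control and Mll4 deleted, Cebpe, the factor of granule maturation, at 5.26 and 28.9, and Gfi1 at 12.8 and 31.9. Spi1, which encodes PU.1, was at 123 and 166 and Runx1 at 111 and 132, and neither was called. Among 14 measured cytokine receptors, 6 were higher and 1 lower. The receptors called higher besides Csf1r were Csf2rb at 12.6 and 55.3, Il3ra at 17.3 and 38.0, Il6ra at 10.1 and 40.2, Il7r at 5.16 and 52.8, and Ifngr1 at 73.6 and 213 CPM. Kit itself was at 215 and 362, a log2 ratio of 0.75, while the median count of the CD117 antibody, which reads its protein, was 217 and 170.

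**Figure D2:**
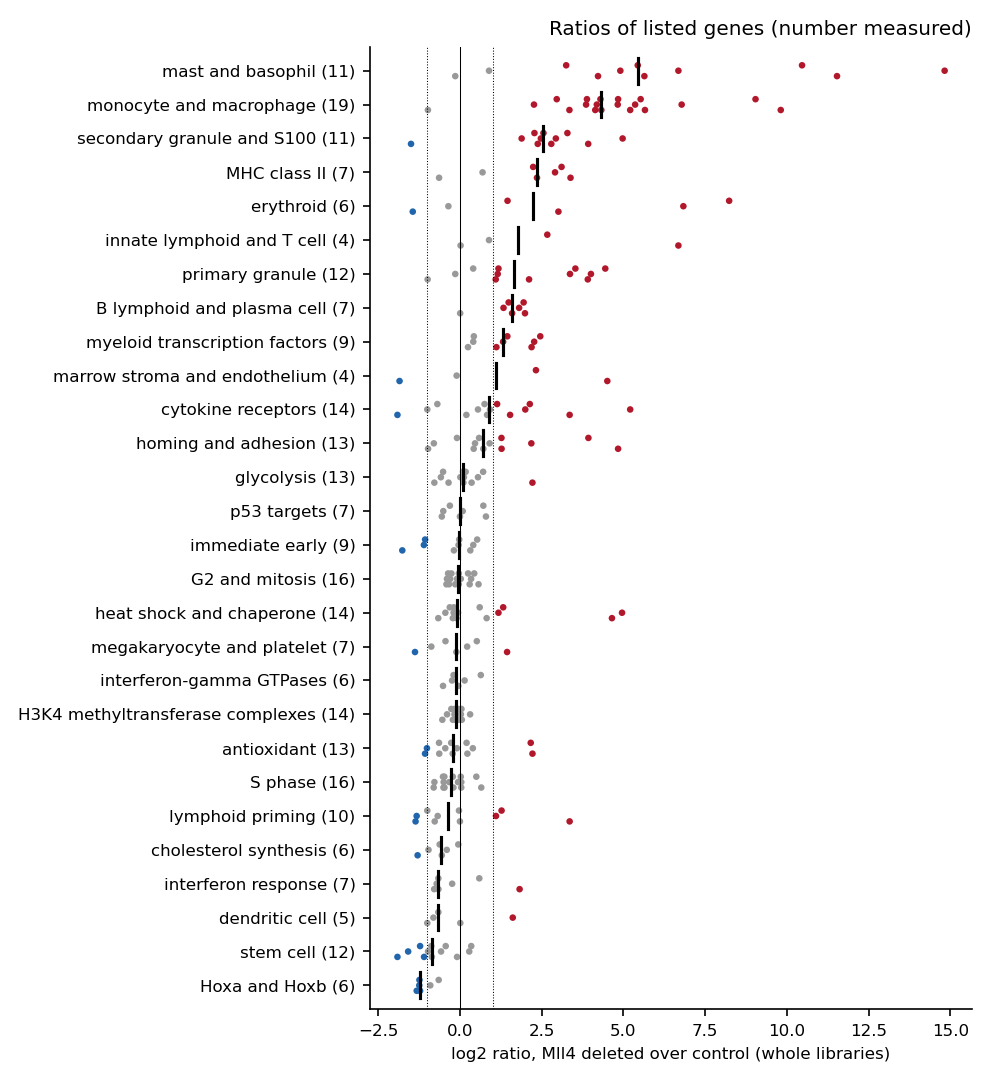
Each point is the log2 ratio of 1 gene, Mll4 deleted over control in the whole libraries, by gene list, red at 2-fold or more higher and blue at 2-fold or more lower. Black bars are list medians and dotted lines mark 2-fold. Medians run from -1.23 for the Hoxa and Hoxb list to 5.44 for the mast and basophil list, against -0.12 over all 6541 genes.

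Most antigen presentation genes were higher. Of 7 measured MHC class II genes, 5 were higher and none lower, with a median log2 ratio of 2.36. H2-Aa was at 80.8 CPM in the control, 152 in Mll3 deleted, 696 in Mll4 deleted and 4.61 in Mll3/4 deleted, and Cd74, the invariant chain, was at 165, 323, 1237 and 14.5. Among 5 measured genes of a dendritic cell list, Ly6d was higher and the median log2 ratio was -0.66, which became 1.62 at a minimum of 5 CPM. Flt3, the receptor of lymphoid-primed progenitors and dendritic cells, was at 64.0 and 32.0 CPM, a log2 ratio of -0.998 whose interval, -1.05 to -0.94, lies across the 2-fold line.

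Message of Igkc, the immunoglobulin kappa constant region, was high in both libraries and about 4-fold higher in Mll4 deleted. It was at 2078 CPM in the control, 3823 in Mll3 deleted, 8016 in Mll4 deleted and 562 in Mll3/4 deleted. Other chains differed by other amounts: the lambda constant region Iglc2 was at 165 CPM in the control and 416 in Mll4 deleted. Of 7 measured B lymphoid and plasma cell genes, 6 were higher and none lower, and the median log2 ratio was 1.60. In Mll4 deleted 90% of the UMIs of Igkc lay in 102 cells, but 4682 of 4793 cells had at least 1, and in the control 90% lay in 26 cells and 2091 of 7274 had at least 1. Pax5, a factor of early B cells, was low in both, with 73 and 86 UMIs. Ighg1 had 0 UMIs in the control and 5368 in Mll4 deleted, and Ighg2c had 1 and 13952. These 2 genes were outside the naming rule and were picked after their values were seen. Together with Tpsb2 they were the 3 called genes with 3 or fewer control UMIs.

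Lymphoid priming genes moved in both directions. Of 10 measured, 3 were higher, among them Il7r and Cd52, and Dntt and Cd27 were lower, and the median log2 ratio was -0.35. Dntt, the terminal transferase of lymphoid progenitors, was at 106 CPM in the control, 178 in Mll3 deleted, 42.3 in Mll4 deleted and 1254 in Mll3/4 deleted. Cd27 was at 148, 129, 57.7 and 4.65 in the same order. Cd52, a surface glycoprotein of lymphocytes and myeloid cells, was at 119 and 255 in the control and Mll4 deleted, and with cells of other-type markers left out its log2 ratio was -0.0037. Of 4 measured innate lymphoid and T cell genes, Id2 and Il1rl1 were higher. The T cell markers under the minimum level went both ways. Cd3e had 44 UMIs in the control and 2 in Mll4 deleted and Cd3g had 370 and 17, while the receptor constant region Trbc2 had 411 and 1133 and the T cell factor Bcl11b 163 and 878. The 11 innate lymphoid or T cell markers summed to 60.3 CPM in the control and 99.2 in Mll4 deleted.

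Some stem cell genes were lower in the whole library. Of 18 listed, 12 were measured, 4 were lower, none was higher, and the median log2 ratio was -0.87. With quadrants of CD150 and CD48 weighted to their control shares the median was 0.06. Hlf, a transcription factor that marks blood stem cells, was at 291 CPM in the control, 271 in Mll3 deleted, 136 in Mll4 deleted and 2.21 in Mll3/4 deleted, and its log2 ratio was -1.10 (-1.12 to -1.07), or -0.39 with quadrants so weighted. Meis1, a homeobox factor that partners with Hox proteins, was at 185, 233, 79.6 and 55.6 over the 4 libraries. Procr, which encodes the surface receptor CD201, was at 32.3, 29.4, 10.8 and 0.138. For Hlf and Procr the control and the library labelled Mll3 deleted were close, Mll4 deleted was lower, and Mll3/4 deleted was lower still by far. The genes that did not follow were Mecom, a regulator of stem cell quiescence, at 87.5 and 107 CPM, Gata2 at 85.6 and 80.5, and Ly6a, which encodes Sca1, at 93.4 and 119.

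Hoxa and Hoxb genes, which are active in stem and progenitor cells, were measured together with their partners. Of 16 listed, 6 were measured, and all 6 had a log2 ratio below 0, with 4 of them lower by 2-fold and a median of -1.23, or -0.57 with quadrants weighted to control shares. Those 4 were Hoxa9, Hoxa7, Hoxa10 and the partner Meis1, whose levels are given above with the stem cell genes. Hoxa9 was at 78.5 CPM in the control, 74.4 in Mll3 deleted, 31.4 in Mll4 deleted and 74.0 in Mll3/4 deleted. Hoxa7 was at 50.1, 52.7, 21.2 and 56.1. The library labelled Mll4 deleted was thus the only 1 of the 4 with low Hoxa9 and Hoxa7. Hoxa10 was at 23.9 and 10.1 in the control and Mll4 deleted, and Hoxb4 at 22.1 and 14.1.

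Erythroid genes split by kind. Of 6 measured, Tfrc and 3 haemoglobin genes were higher and Car2, carbonic anhydrase 2, was lower. Hba-a1 was at 0.989 CPM in the control, 0.888 in Mll3 deleted, 299 in Mll4 deleted and 42.9 in Mll3/4 deleted, and Hbb-bs at 5.43, 4.20, 619 and 152. Both belong to near-identical gene pairs, so the division between copies is uncertain. In Mll4 deleted 90% of the UMIs of Hba-a1 came from 18 cells, and Klf1 and Epor, a factor and a receptor of red cell precursors, had 216 and 282 UMIs in the control against 138 and 153. Car2 was at 529 and 195 CPM. Of 7 measured megakaryocyte and platelet genes, Plek was higher at 34.2 and 93.02 and Cd9 was lower at 91.2 and 35.2, with a median log2 ratio of -0.11. The megakaryocyte markers used further on to mark cells were below their control levels, except Gp6, which had 0 UMIs in both libraries. Pf4 was at 72.5 and 39.5 CPM, short of 2-fold. The others stayed under the minimum level: Gp9 was at 14.4 and 2.23, Treml1 at 4.06 and 0.729, Gp1bb at 1.09 and 0.423, and Ppbp at 0.989 and 0.290. Of 4 measured marrow stroma and endothelium genes, Cxcl12 and Fabp4 were higher and Emcn, a surface protein also found on stem cells, was lower at 25.2 and 7.001. For Cxcl12, 15 cells of Mll4 deleted held 90% of the UMIs.

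Among genes at 50 CPM or more in either library, a tropomyosin-related sequence and a tetraspanin were the lowest in Mll4 deleted relative to the control. Tpm3-rs7 (chromosome 14, 113314608 to 113316754), named as a sequence related to the tropomyosin gene Tpm3, was at 103 CPM in the control, 237 in Mll3 deleted, 4.19 in Mll4 deleted and 67.3 in Mll3/4 deleted. It was 24.6-fold lower than in the control, while Tpm3 itself was at 354 and 389, and reads of such a copy can be divided between the 2. Tspan32, a tetraspanin of blood cells (chromosome 7, 143005046 to 143019644), was at 166, 43.7, 15.8 and 36.5 over the 4 libraries, 10.5-fold lower in Mll4 deleted than in the control and below the control in all 3 others. Cd81, another tetraspanin, lies within 0.5 Mb of Tspan32 and was at 185 and 59.8. The other 4 measured genes of that window had log2 ratios between -0.48 and -0.33.

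Myl10, a myosin light chain, was at 298 CPM in the control, 166 in Mll3 deleted, 61.9 in Mll4 deleted and 2.28 in Mll3/4 deleted. Sdsl, a serine dehydratase relative, was at 94.4, 96.4, 19.8 and 1.12. Rab37, Pglyrp2 and Acap1 were likewise near the control level in Mll3 deleted, with Rab37 at 53.2, 45.3, 13.3 and 0.354. Klk8 and Sept1 had their lowest value in Mll4 deleted alone: Klk8 was at 65.5, 136, 17.4 and 95.8, and Sept1 at 150, 127, 44.4 and 226. Ltb, the lymphotoxin beta gene, was at 112, 62.5, 32.2 and 43.3. Ptprcap, which associates with the phosphatase CD45, was at 387, 405, 104 and 97.0, and Zfpm1, the GATA1 partner FOG1, at 89.7, 84.6, 26.0 and 10.4. Below the level of the naming rule, and picked after their values were seen, E230032D23Rik was at 21.1 and 0.539 and Nefh, a neurofilament gene, at 20.7 and 1.14 in the control and Mll4 deleted.

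Cell cycle genes differed little in the whole libraries. All 16 S phase genes and all 16 genes of G2 and mitosis were measured, none was called in either direction, and the medians were -0.27 and -0.06. With cells weighted equally the medians were -0.47 and -0.37, and their values by quadrant are given further on. Pcna, the replication clamp, was at 273 and 190 CPM, Mcm6 at 205 and 211, and Mki67 at 399.8 and 376. Interferon-gamma GTPases (6 measured) and p53 targets (7 measured) had no called gene and medians of -0.12 and 0.00. Cholesterol synthesis genes were all below 0 in log2 ratio, but of 6 measured only Idi1 was called, at 40.2 and 16.4, and the median was -0.59. Glycolysis genes had a median of 0.11, and Hk2, a hexokinase, was the only called one, at 16.2 and 75.2. Interferon response genes had a median of -0.66 over 7, with Ifi27l2a higher at 30.01 and 106.

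Stress genes were mixed. Of 9 measured immediate early genes, Jund, Ier2 and Ier3 were lower and none was higher: Jund was at 253 and 121 CPM, Ier2 at 119 and 55.6, and Ier3 at 45.7 and 13.5. Jun, at 216 and 212, and Junb, at 65.5 and 63.6, were close in the 2 libraries. Of 14 heat shock and chaperone genes, 4 were higher. Hspa1a was at 1.65 and 41.5 and Hspa1b at 1.68 and 52.4, 2 near-identical inducible chaperones whose reads may be divided between them, and the endoplasmic reticulum chaperones Calr and Pdia4 were at 650 and 1471 and at 46.8 and 117. Hsp90aa1, also heat-inducible, was at 1339 and 846. Of 13 antioxidant genes, Gsr, glutathione reductase, was at 45.1 and 210 and Hmox1, the haem-degrading enzyme, at 6.99 and 31.4, while Prdx2 at 482 and 240 and Gclm at 173 and 82.6 were lower. Of 13 homing and adhesion genes, 5 were higher, among them Cxcr4 at 14.6 and 35.2, Vcam1 at 3.14 and 47.9 and Itgb2 at 11.5 and 52.4, and none was lower.

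The antibody counts differed between the 2 libraries. Cells were placed in 4 quadrants by the centred log ratio of their CD150 and CD48 counts, with thresholds set over both libraries. The CD150+CD48- quadrant, where stem cells are sought, held 1978 cells (27.2%, 26.2 to 28.2) of the control and 413 (8.62%, 7.84 to 9.45) of Mll4 deleted. The CD150-CD48- quadrant held 15.3% and 8.39%, and the CD150+CD48+ quadrant 5.07% and 3.34%. The CD150-CD48+ quadrant held 52.5% of the control and 79.7% of Mll4 deleted. Without centring the CD150+CD48- shares were 24.9% and 7.87%, but the CD150+CD48+ shares were 8.29% and 12.9%, so the order of that quadrant depends on the scale. Among cells with LSK markers, counted further on, the centred CD150+CD48- shares were 27.8% of the control and 18.1% of Mll4 deleted. In those cells the CD150-CD48- shares were 15.8% and 16.1%, the CD150-CD48+ shares 51.7% and 59.0%, and the CD150+CD48+ shares 4.67% and 6.82%. CD48 took 64.6% of all antibody counts in the control and 79.2% in Mll4 deleted, and its median count per cell was 698 and 1852. CD34 took 12.2% and 5.20%, and the level of the Cd34 message was 332 and 199 CPM. Message of Cd48 was at 99.4 and 105 CPM, unlike the antibody. CD117 took 14.5% and 10.5%, with median counts of 217 and 170, while Kit message was at 215 and 362 CPM. CD201 took 2.96% and 1.98%, with median counts of 22 and 30, while Procr message was at 32.3 and 10.8. Median counts were 21 and 20 for CD150 and 19 and 19 for CD135. In cells with LSK markers the median CD48 antibody count was 679 in the control and 1516 in Mll4 deleted. The median of all antibody counts per kept cell was 1256 and 2398. How far the quadrant shares follow the mix of cells or the antibody counts per cell was not tested.

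Within a quadrant, a smaller share of genes was called than in the whole libraries in 3 quadrants, and a larger share in CD150-CD48+ cells. With antibody counts not centred, 508 of 6751 genes were higher in CD150+CD48+ cells, a larger share than in the whole libraries. In the CD150+CD48- quadrant, 194 of 6533 genes (2.97%) were higher and 128 (1.96%) lower in Mll4 deleted, and in the CD150-CD48- quadrant 218 of 6515 (3.35%) and 171 (2.62%). In the CD150-CD48+ quadrant, which held most cells, 532 of 6497 (8.19%) were higher and 317 (4.88%) lower, and in the CD150+CD48+ quadrant 241 of 6461 (3.73%) and 72 (1.11%). Each of these counts uses the genes at 20 CPM in that quadrant. Of the 450 genes higher in the whole library, 185 (41.1%) were 2-fold higher in all 4 quadrants, and of the 250 lower genes, 36 (14.4%) were 2-fold lower in all 4.

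The stem cell and Hox lists had low medians in CD150-CD48+ cells and medians near 0 in CD150+CD48- cells. The makeup of each quadrant differed as well: cells with markers of other types, defined further on, were 9.86% of control and 44.8% of Mll4 deleted cells in CD150+CD48-, 5.05% and 57.2% in CD150-CD48-, 6.97% and 64.0% in CD150-CD48+, and 12.2% and 50% in CD150+CD48+. Their part in these values was not tested. The stem cell median was 0.06 in CD150+CD48- cells, -0.19 in CD150-CD48- cells, -1.33 in CD150-CD48+ cells and 0.18 in CD150+CD48+ cells. For the Hoxa and Hoxb list the medians were -0.05, -0.22, -1.62 and -0.39 in the same order. Those of the S phase list were 0.28, 0.17, -0.47 and -0.20, and those of the G2 and mitosis list 0.11, 0.24, -0.22 and -0.18. Hlf had log2 ratios of 0.21, -0.26, -1.71 and 0.21, and Hoxa9 of -0.38, -0.21, -1.78 and -0.61. Mecom was 2-fold higher in 3 quadrants, at 1.41, 1.23 and 1.48, with -0.27 in CD150-CD48+ cells. No test of these differences between quadrants can be made with 1 library a side.

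Granule genes were divided. Elane had log2 ratios of 4.15, 6.95, 3.66 and 3.101 over the quadrants in the order above, Mpo of 5.42, 5.70, 4.07 and 4.03, and Ctsg of 4.56, 5.92, 3.15 and 3.08. Prtn3, in contrast, had -0.24 and -0.52 in the CD48- quadrants and 2.10 and 1.74 in the CD48+ quadrants. The median of the primary granule list was -0.29, -0.33, 1.71 and 1.37. Ranked by the quadrant in which they differed least, the 8 highest genes were, besides Mpo, Elane, Ctsg, S100a8 and Cpa3, the metallothionein Mt1 at 19.8 and 221 CPM, the N-myristoyltransferase Nmt1 at 27.6 and 169, and Snhg9, a host gene of a small nucleolar RNA, at 4.96 and 66.0. Nmt1 was almost even over the quadrants, with log2 ratios of 2.42, 2.56, 2.59 and 2.57, and Snhg9 had 3.73, 3.54, 3.68 and 4.16. Among the 8 lowest by the same ranking were the cell cycle inhibitor Cdkn2d at 62.7 and 19.7 CPM, Klk8, Ltb, Myl10, Sdsl, Tspan32 and Tpm3-rs7. Tpm3-rs7 lay between -4.86 and -4.60 in the 4 quadrants.

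**Figure D3:**
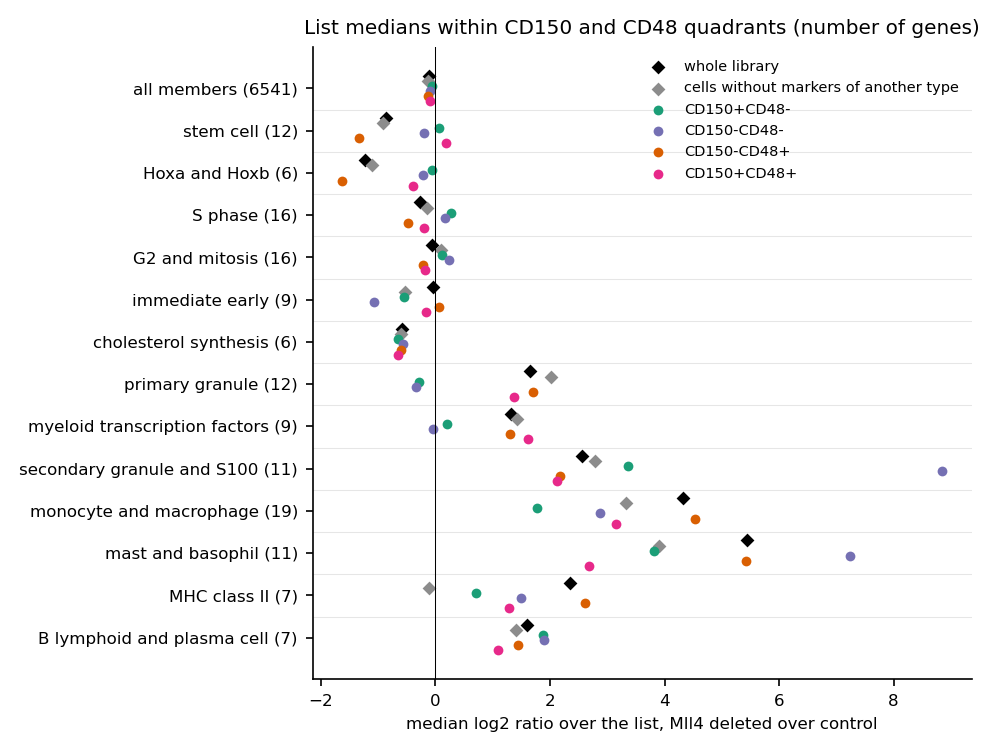
The x axis is the median log2 ratio, Mll4 deleted over control, and each line on the y axis is a gene list with the number of genes measured. Diamonds are the whole libraries (black) and the cells without markers of another type (grey), and circles are the 4 quadrants. The stem cell median is -1.33 in CD150-CD48+ cells and 0.06 in CD150+CD48- cells, while the mast and basophil median is above 2 in every quadrant.

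Cells with markers of other cell types were counted directly. A cell was marked when it had 2 or more UMIs of at least 3 markers of 1 of 9 other cell types. To compare cells of unequal depth, each was thinned to 3000 UMIs, which left out 14 cells of the control and 134 of Mll4 deleted. Mast and basophil markers then marked 0.0826% of control cells (0.0303 to 0.180) and 12.1% of Mll4 deleted cells (11.1 to 13.0), and 0.344% and 18.3% before thinning. Monocyte or macrophage markers marked 0.138% and 10.8%, or 0.316% and 18.0% unthinned. For B or plasma cell markers the thinned shares were 0.565% and 2.92% (0.715% and 7.91% unthinned), and for innate lymphoid or T cell markers 0.207% and 2.28% (0.536% and 6.47%). Neutrophil markers marked 0.262% and 1.46% (0.275% and 1.56%). The dendritic cell list marked 1.09% and 12.7% (5.43% and 27.2%), but its levels were mostly those of 3 MHC class II genes, and its marker Cd209d had 0 UMIs in the control. Megakaryocyte markers marked 32 control cells (0.440%) and 9 Mll4 deleted cells (0.188%) before thinning, and 3000 UMIs were too few to mark any. Among the megakaryocyte markers Gp6 had 0 UMIs in both libraries. Markers of the LSK gate were present in both, with Kit and Ly6a at the levels given above. They marked 7.08% and 7.13% of thinned cells, and 86.9% and 45.6% of unthinned ones.

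The antibody counts of these cells were taken next, since the sort required Kit, which the CD117 antibody reads. The 876 mast and basophil marked cells of Mll4 deleted had a median CD117 count of 725.5 and the 865 monocyte or macrophage marked cells one of 127. All kept cells had one of 170, against 217 in the control. Of the mast and basophil marked cells 92.9% lay in the CD150-CD48+ quadrant, and of the monocyte or macrophage marked cells 95.6%. Between these 2 groups 89 cells were marked for both, and 522 of the monocyte or macrophage marked cells were also marked by the dendritic cell list.

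Marks of any other type were on 562 control cells (7.73%) and 2939 Mll4 deleted cells (61.3%), and after thinning on 2.23% and 34.5%. Of these, 381 control and 1181 Mll4 deleted cells had LSK markers as well, and in the control 327 of the 395 cells marked by the dendritic cell list did. Leaving the unthinned marked cells out of both libraries kept 6712 control cells and 1854 Mll4 deleted cells. Among 6378 genes at the minimum in the cells kept, 326 (5.11%) were then higher and 264 (4.14%) lower. Of the 450 higher genes, 342 (76.0%) were still 2-fold higher, and of the 250 lower genes, 207 (82.8%) still 2-fold lower. Medians in the kept cells were 2.02 for primary granule genes, 3.33 for monocyte and macrophage genes, 3.90 for mast and basophil genes, -0.92 for stem cell genes and -1.11 for the Hoxa and Hoxb list. Several listed genes are themselves markers, so leaving out marked cells removes part of their own message. By the rule deeper cells are marked more readily, but marked cells of Mll4 deleted, 61.3% of its cells, held 52.1% of its UMIs. The cells kept were of unequal depth: in the CD150-CD48+ quadrant their median was 17241 UMIs in the control and 34228.5 in Mll4 deleted. Of the UMIs of Mpo in Mll4 deleted, 39.8% lay in marked cells, and of Tspan32, 42.5%. Message of some genes was spread over nearly all barcodes: Igkc had a UMI in 4682 of 4793 kept cells, and took 0.941% of the UMIs of the barcodes left out for low gene number, against 0.802% in the kept cells. The part of free RNA in these values was not tested.

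**Figure D4:**
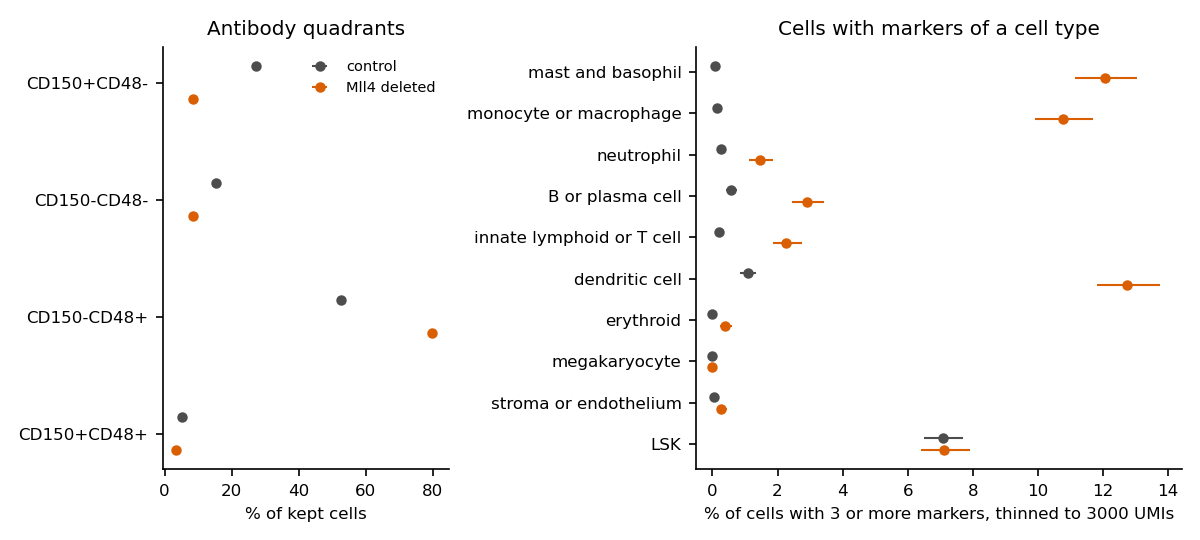
Left, the share of kept cells in each CD150 and CD48 quadrant; right, the share of cells with 3 or more markers of a cell type after thinning to 3000 UMIs. Points are the 2 libraries and bars are exact 95% binomial intervals, which cover counting error only. Mast and basophil markers marked 12.1% of Mll4 deleted cells and 0.0826% of control cells.

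The ratio also moved with transcript length. A length of the principal transcript was found for 6436 of the 6541 genes (98.4%). The 59 genes with a transcript under 500 nucleotides had a median log2 ratio of 0.91, and 25 of them were higher and none lower. Genes of 750 to 1000 nucleotides had a median of -0.41 (307 genes, 19 higher and 23 lower), and those of 4000 or more had one of -0.05 (1933 genes). For the shortest genes the median was 0.97, 0.97, 0.84 and 0.74 in the 4 quadrants, in the order above, and 1.02 in cells without other-type markers. The same genes had a median of -0.66 in Mll3 deleted and 0.30 in Mll3/4 deleted, each over the same control.

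Among mitochondrial genes, the 3 with the shortest annotated lengths were the 3 called genes. The gene mt-Atp8 (204 nucleotides) was at 120 and 572 CPM, mt-Nd3 (348) at 128 and 722, and mt-Nd4l (297) at 216 and 494. Whether each annotated gene is a separate transcript of that length was not tested. The other 10 had log2 ratios between -0.55 and 0.22. Of 77 genes of cytosolic ribosomal proteins, all measured, 6 (7.79%) were higher, against 6.88% of all genes, and none was lower, with a median log2 ratio of -0.27. Among the 6 were Rps28 (437 nucleotides) at 1725 and 5968, Rps29 (390) at 3548 and 12042, and Rpl38 (457) at 2051 and 5197 CPM. The cause of the relation with length was not tested. Among the genes named before it, S100a8 (486 nucleotides) and Ifi27l2a (463) have transcripts this short.

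**Figure D5:**
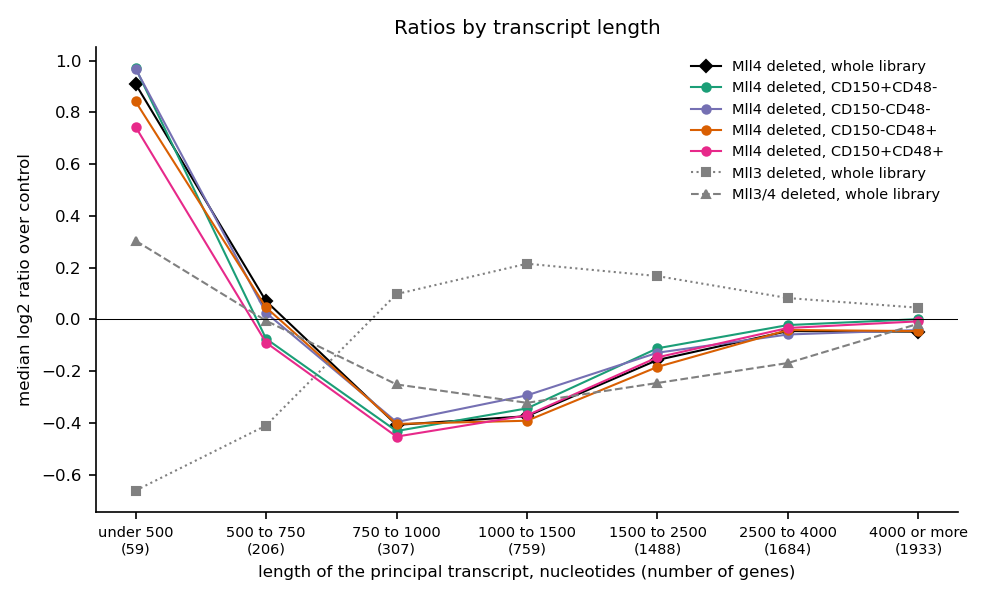
The x axis gives bins of principal transcript length in nucleotides with the number of genes, and the y axis the median log2 ratio over the control. Black diamonds are the whole library labelled Mll4 deleted, circles its 4 quadrants, and grey symbols the libraries labelled Mll3 deleted and Mll3/4 deleted, over the same control. For genes under 500 nucleotides the median is 0.91 in Mll4 deleted and -0.66 in Mll3 deleted.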

How the data were processed

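The deposited matrices hold raw counts of UMIs per gene and of antibody tags per barcode. Per the submitters' processing notes they were made with Cell Ranger 6.1.1 and the build mm10, and the filter that chose the deposited barcodes is not given in the sources used here. Groups were taken from the sample titles. Coordinates and transcript lengths are from GENCODE mouse release M21 (GRCm38), in which 32158 of 32285 gene identifiers (99.6%) were found, and promoters are from RefSeq (GRCm38.p6).

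Ratios were taken as log2 of CPM after adding 0.5 UMIs. Intervals are exact: conditional binomial for ratios, Clopper-Pearson for shares. The method was checked on counts drawn with known fold changes. TMM factors came from edgeR 4.0.16, and doublet scores from Scrublet in scanpy 1.11.5 with the highest 0.8% of cells per 1000 cells removed, both as alternatives only. Doublets were otherwise kept. Quadrants used the crossing of a Gaussian mixture of 2 components per antibody.

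Genes named are the 12 highest and 12 lowest ratios at 50 CPM or more in either library; the 8 highest and 8 lowest by the ratio nearest 0 over the quadrants; up to 4 genes of each of 28 lists, by level; and checks. The first 2 groups leave out mitochondrial, ribosomal protein, haemoglobin, immunoglobulin, Xist, Y-linked and unnamed genes. Other listed genes that are named, and the windows around Kmt2d and Tspan32, were chosen after their values were seen. Members, lists and rules were chosen with earlier results of these data known. Not analysed here are comparisons among the other 2 libraries.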

Additional observations from a re-analysis of the deposited data

Results flagged for a closer look

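In the library labelled Mll4 deleted, 31.6% of the deposited barcodes (2436 of 7702) had under 1000 genes with at most 10% mitochondrial UMIs and were left out of every comparison, against 0.651% (50 of 7682) in the control. They stand out because they are data outside the comparison, above the level in the control. Their medians were 403 genes, 638 UMIs and 102 antibody counts, and they held 1.46% of the UMIs of the library's barcodes. Mpo took 0.381% of their UMIs and 0.378% of those of the kept cells, Igkc 0.941% and 0.802%, and Cma1 0.105% and 0.0459%. What these barcodes hold was not tested.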

How the results depend on the processing

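Of the 142 named genes, 80 were called 2-fold apart. All 80 kept their direction under TMM and median-of-ratios scaling, looser and stricter barcode filters, doublet removal (423 control and 184 Mll4 deleted cells), cells weighted equally, library totals that leave out ribosomal protein and mitochondrial genes, and quadrants weighted to control shares; 67 to 80 stayed 2-fold apart. With marked cells of other types left out, 77 kept their direction, and H2-Ab1 had a log2 ratio of -0.41, Cd52 of -0.0037, Ifi27l2a of -0.0153 and the MHC class II list a median of -0.10; 3 genes of that list are markers of the cells left out, which fixes this in part by construction. Of 28 list medians, 17 kept their sign in every alternative that gave a value. The stem cell median turned to 0.06 with quadrants weighted to control shares and the dendritic cell median to 1.62 at 5 CPM; the other 8 that turned had medians between -0.35 and 0.11. Scaling moved every ratio by 0.04 (TMM) or 0.02 (median of ratios).

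The count of higher genes was 859 at a minimum of 5 CPM, 155 at 100 and 726 with equal weight per cell, against 450. The count of lower genes was 535 at 5, 48 at 100, 388 with totals that leave out mitochondrial and ribosomal protein genes (504 higher) and 141 with quadrants weighted to control shares, against 250. With antibody counts not centred, the CD150+CD48+ quadrant had 508 higher and 213 lower genes, against 241 and 72. Minimums and smaller totals change how many genes are tested; for the others the cause was not tested. No paired analysis was possible because each group has 1 library and the labels carry no replicate numbers.

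Leaving out a library leaves no comparison, and the number of mice is not given. Scrublet's own threshold called 3 control and 171 Mll4 deleted cells, too few in the control to use. Of the cells removed by score, 42 control and 163 Mll4 deleted cells had markers of other types. Counting error is small at 119328763 and 120700343 UMIs, but says nothing of the spread between animals.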
